A study of Homo sapiens with 32 samples.

Results

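The Sm proteins and the proteins particular to the U1 particle are the protein core of the small nuclear ribonucleoprotein that marks the start of introns. The 10 genes described here were chosen by name, with earlier results of these data known. Of the 10, 7 encode Sm proteins (SNRPB, SNRPD1, SNRPD2, SNRPD3, SNRPE, SNRPF and SNRPG) and 3 encode proteins of the U1 particle (SNRPA, SNRPC and SNRNP70). They are 10 of the 18858 genes to which the deposited transcripts could be matched, and they held 13 of the 42587 matched transcripts. All 10 had counts in each of the 32 libraries and passed the filter on low counts.

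As background, Sm proteins form a ring around the small nuclear RNAs U1, U2, U4 and U5. The SMN complex loads the ring in the cytoplasm after the methylosome has methylated several of its members, and the cap of the RNA is then trimethylated before the particle returns to the nucleus. In the U1 particle, SNRNP70 and SNRPA bind the stem-loops of the RNA, and SNRPC steadies its pairing with the splice site. SNRPB encodes the SmB proteins, SNRPD1, SNRPD2 and SNRPD3 the SmD proteins, and SNRPE, SNRPF and SNRPG the SmE, SmF and SmG proteins.

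RNA came from 4 established human cancer lines: the melanoma line A375, the breast cancer lines Cal51 and MDA-MB-231, and the colorectal line DLD1. Each was grown as cells with the G579S change in CDK11, called resistant in the design text, and as wild-type cells, called sensitive. CDK11 is a cyclin-dependent kinase of transcription and splicing, and OTS964 is a small molecule that inhibits it. In each line and genotype 2 libraries came from cells given OTS964 at 100 nM for 6 h and 2 from cells given the solvent DMSO for the same time, which makes 16 groups. The labels do not say how the G579S cells were made, whether a line was 1 clone, or whether replicates are separate cultures. The spread between replicate libraries may thus be technical. It is all that the p-values within single lines measure. Those across lines also take in how far the lines differ in the change tested.

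A library held between 16091376 and 29742687 estimated reads. The gene counts do not show a point mutation. The CDK11B level was however apart in MDA-MB-231 G579S cells, with 605 and 672 CPM (counts relative to library size, scaled by the trimmed mean of M-values, TMM) under DMSO against 61.8 and 56.4 CPM in wild-type MDA-MB-231 cells. The libraries labelled DLD1 wild-type did not carry the markers of a colorectal line: under DMSO, the melanocyte factor SOX10 stood at 0.938 and 1.63 CPM in DLD1 G579S, against 737 and 695 CPM in DLD1 wild-type. The intestinal factor CDX2 stood at 96.1 and 96.5 CPM in DLD1 G579S, against 2.84 and 3.66 CPM in DLD1 wild-type. Not all of the 6 melanocyte markers listed went with SOX10. MITF stood at 25.8 and 23.3 CPM in DLD1 G579S under DMSO, against 15.7 and 12.0 CPM in DLD1 wild-type. MLANA, TYR and DCT were at 0 in both DLD1 wild-type DMSO libraries. The DLD1 wild-type libraries are named by their label. By chi-square per degree of freedom over genes, the 2 Cal51 G579S libraries under DMSO, at 87, and the MDA-MB-231 wild-type pair under OTS964, at 86, differed most. The other pairs lay between 5.68 and 47.8, all above the value near 1 that sampling noise alone would give.

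The promoters of 9 of the 10 genes were in the RefSeq promoter table of GRCh38.p14, each as 250 bases before and 50 bases after 1 annotated start. Shown are those of SNRPB and SNRPC, whose levels separated OTS964 from DMSO in every wild-type library with TMM scaling, but not with library totals. Those of SNRPA and SNRNP70, which had the smallest changes with TMM scaling, are shown too. The printed promoters were thus picked by the response to OTS964. Whether any motif goes with that response was not tested. Capitals mark matches, on either strand, to the ETS motif CCGGAAG, the GC box GGGCGG, the CCAAT box CCAAT and the TATA box TATAAA. SNRPB lies at chr20:2470740-2471039 on the minus strand, SNRPC at chr6:34757255-34757554 on the plus strand, SNRPA at chr19:40750953-40751252 on the plus strand and SNRNP70 at chr19:49085201-49085500 on the plus strand.
SNRPB: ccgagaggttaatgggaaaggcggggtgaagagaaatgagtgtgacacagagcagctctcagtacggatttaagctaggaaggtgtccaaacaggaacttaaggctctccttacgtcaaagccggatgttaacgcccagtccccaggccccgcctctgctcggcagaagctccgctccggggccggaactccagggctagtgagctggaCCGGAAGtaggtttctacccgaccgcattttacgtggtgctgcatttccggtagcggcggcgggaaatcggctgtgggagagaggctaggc
SNRPC: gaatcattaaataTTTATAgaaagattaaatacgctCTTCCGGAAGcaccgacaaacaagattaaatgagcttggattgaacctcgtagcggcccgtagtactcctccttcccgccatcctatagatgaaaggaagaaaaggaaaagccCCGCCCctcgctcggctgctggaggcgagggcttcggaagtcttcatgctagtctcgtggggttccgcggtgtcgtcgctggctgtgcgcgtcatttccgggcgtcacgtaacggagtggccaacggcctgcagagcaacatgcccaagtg
SNRPA: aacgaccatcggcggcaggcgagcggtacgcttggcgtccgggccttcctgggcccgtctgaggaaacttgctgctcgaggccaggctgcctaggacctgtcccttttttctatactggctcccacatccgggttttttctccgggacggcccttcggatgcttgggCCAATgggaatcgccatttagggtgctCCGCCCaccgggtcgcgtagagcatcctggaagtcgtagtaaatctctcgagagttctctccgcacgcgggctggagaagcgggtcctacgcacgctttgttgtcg
SNRNP70: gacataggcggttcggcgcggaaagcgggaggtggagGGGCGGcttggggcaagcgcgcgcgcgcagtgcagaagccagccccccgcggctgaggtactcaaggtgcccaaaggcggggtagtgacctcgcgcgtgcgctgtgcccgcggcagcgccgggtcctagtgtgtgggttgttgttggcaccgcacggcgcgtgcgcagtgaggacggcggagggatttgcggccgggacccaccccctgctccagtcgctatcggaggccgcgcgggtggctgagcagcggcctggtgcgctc
The ETS motif was in the windows of 5 of the 9 genes (SNRPB, SNRPD2, SNRPE, SNRPG and SNRPC), against 10.67% of all 27305 promoters of the table. It lay 41 bases before the start of SNRPB, and in SNRPC the motif was found on both strands at overlapping places. A GC box was in 6 of the 9 windows, against 44.59% of all promoters, and a CCAAT box in 3, against 35.7%. SNRPC alone among the 9 held a TATA box, which 11.95% of promoters had. The E-box CACGTG, the NRF1 motif and the YY1 motif AAGATGGCG were in 0 of the 9 windows, against 7.435%, 1.359% and 1.849% of all promoters. These are matches of letters within 1 window per gene. SNRPD2, SNRPD3 and SNRPG have 3, 2 and 3 starts in the promoter table. For no gene was the start used checked against that of the transcript counted here. The counts of motifs are thus counts of windows, which need not be the promoters of those transcripts.

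Per transcript length, SNRPB was the most abundant member in wild-type cells under both treatments. Its level in TPM, a share of all transcripts corrected for length, ran from 821 over a median of 950 to 1131 under OTS964 and from 787 over 866 to 1044 under DMSO. SNRPG followed, with medians of 590 and 511 TPM, then SNRPF with 382 and 323 TPM and SNRPC with 242 and 194 TPM, OTS964 given first. SNRPB was above SNRPG in 8 of 8 libraries of either treatment, and their ranges did not overlap. Below SNRPC, SNRPD1 had medians of 190 TPM under OTS964 and 158 TPM under DMSO, SNRNP70 140 and 153 TPM, SNRPA 103 and 145 TPM, and SNRPE 174 and 134 TPM. Under DMSO the levels of SNRNP70, SNRPA and SNRPE could not be ordered, since neighbours exceeded each other in 4 of 8 libraries. SNRPD3 stood at medians of 62.6 TPM under OTS964 and 67.2 TPM under DMSO, and SNRPD2 was the lowest member at 32 and 23.2 TPM. SNRPD2 had between 28 and 462 counts in a library, against 855 to 18693 for the others, and the files hold 2 of the 5 curated transcripts that RefSeq lists for it. Its level here is that of those 2 transcripts. For SNRPG the files hold 1 of 7 curated transcripts, for SNRPE 1 of 4, and for SNRPD1, SNRPF and SNRNP70 1 of 2 each. The order of the members is thus that of the transcripts in the files. SNRPE, SNRPG, SNRPC, SNRPF, SNRPD2 and SNRPB have 11, 20, 20, 4, 2 and 1 pseudogenes in the RefSeq table, so their counts are uncertain where reads were shared.

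In wild-type cells all 10 genes rose with OTS964 across the 4 lines, while 29.9% of the 13677 genes tested were higher and 32% lower. This comparison asks what the drug does to these genes in sensitive cells. Their log2 fold changes ran from 0.38 for SNRPA to 1.17 for SNRPC, with a median of 0.96, against a median of -0.06 over all genes. The test was edgeR's quasi-likelihood test over 8 OTS964 and 8 DMSO libraries with the line as a block, Benjamini-Hochberg adjusted over all genes, with a threshold of 0.05. Levels are given as TMM-scaled CPM. All 10 also rose without the 4 libraries labelled DLD1 wild-type, where 27.1% of genes were higher. In bulk RNA, a change in the RNA of each cell and a change in the mix of cells cannot be told apart.

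Among the Sm genes, SNRPB lay between 713 and 1130 CPM under OTS964, with a median of 810 CPM, and between 370 and 578 CPM under DMSO, with a median of 440 CPM. The lowest OTS964 library was above the highest DMSO library. Its log2 fold change was 0.99 ± 0.07 (SE; adjusted p = 2e-08), a fold of 1.98. Only SNRPB and SNRPC, 2 of the 10, separated all 8 libraries of each treatment in this way, as 5.09% of all genes did. SNRPE rose most among the Sm genes, by 1.14 ± 0.09 (SE; adjusted p = 5.24e-08). It ran from 106 over a median of 239 to 404 CPM under OTS964 and from 57.8 over 106 to 179 CPM under DMSO. The ranges of the 8 libraries overlapped, with A375 and the DLD1-labelled libraries high under DMSO, and within each line both OTS964 libraries were above both DMSO libraries.

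SNRPF and SNRPG moved much like SNRPE. SNRPG ran from 84.2 over a median of 203 to 309 CPM under OTS964 and from 46.2 over 99.6 to 139.6 CPM under DMSO (1.05 ± 0.08, SE; adjusted p = 3.43e-08). SNRPF ran from 98.2 over 218 to 274 CPM under OTS964 and from 61.1 over 110.3 to 128 CPM under DMSO (0.98 ± 0.08, SE; adjusted p = 1.6e-07). In both genes the MDA-MB-231 libraries were the lowest of either treatment. Of the SmD genes, SNRPD1 ran from 131 over a median of 277 to 306 CPM under OTS964 and from 109 over 129.8 to 143 CPM under DMSO (0.95 ± 0.13, SE; adjusted p = 1.24e-05). The 2 OTS964 libraries of MDA-MB-231, at 131 and 163 CPM, were the lowest of their 8. SNRPD3 ran from 189 over 225 to 365 CPM under OTS964 and from 125 over 148 to 203 CPM under DMSO (0.71 ± 0.07, SE; adjusted p = 4.32e-07). Its 2 highest libraries were those of Cal51. SNRPD2 had a median of 18.2 CPM under OTS964, between 3.77 and 24.3 CPM, and of 7.58 CPM under DMSO, between 3.12 and 16.7 CPM. At these low counts its change of 0.90 ± 0.23 (SE; adjusted p = 0.00366) was the least precise of the 10.

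The 3 genes of the U1 particle spanned both ends of the range. SNRPC, whose protein contacts the splice site pairing, lay between 202 and 359 CPM under OTS964, with a median of 258 CPM, and between 97 and 159 CPM under DMSO, with a median of 112 CPM. The 2 groups did not overlap, and the log2 fold change was 1.17 ± 0.07 (SE; adjusted p = 7.11e-09), a fold of 2.25. SNRNP70, the protein of the first stem-loop, ran from 157 over 247 to 301 CPM under OTS964 and from 109.8 over 155 to 192 CPM under DMSO, a change of 0.69 ± 0.09 (SE; adjusted p = 1.21e-05). SNRPA, which binds the second stem-loop, ran from 85.8 over 150.0 to 213 CPM under OTS964 and from 76.3 over 126 to 159.5 CPM under DMSO. Its treatments overlapped broadly and its change was 0.38 ± 0.08 (SE; adjusted p = 0.00136), a fold of 1.3. In each of the 4 lines both OTS964 libraries were above both DMSO libraries for 8 of the 10 genes, against 17.8% of all genes, with SNRPD2 and SNRPA as the exceptions. With library totals SNRPB, SNRPE, SNRPF, SNRPG and SNRPC, 5 of the 10, did so, against 7.73% of all genes, and 0 separated all 8 libraries of each treatment, against 0.817%.

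**Figure D1:**
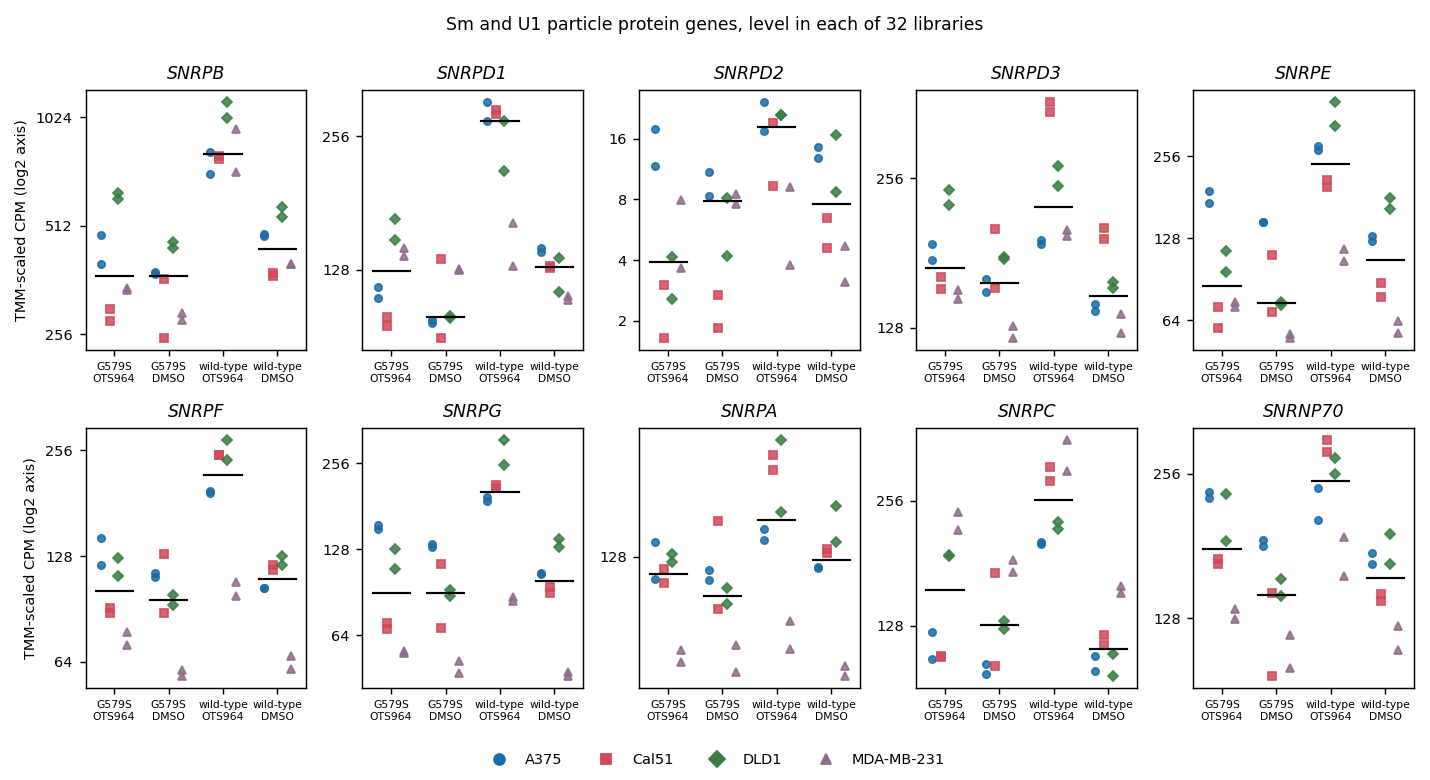
Level of each gene (TMM-scaled CPM, log2 axis) in the 32 libraries by genotype and treatment; each point is a library, colour and shape give the line, and the bar is the median of 8 libraries. The wild-type OTS964 libraries of SNRPB (713 to 1130 CPM) and SNRPC (202 to 359 CPM) lie above all wild-type DMSO libraries.

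How large these rises are depends on the scaling. The wild-type OTS964 libraries had TMM factors of 0.768 ± 0.0504 on average, against 1.12 ± 0.0258 in the wild-type DMSO libraries (SD, n = 8 each). With scaling by library totals the median of all genes was -0.65 on the log2 scale, against -0.06 with TMM, with 14.1% of genes higher and 49.7% lower. Relative to the totals 6 of the 10 genes rose: SNRPC by 0.57, SNRPE by 0.54, SNRPG by 0.45, SNRPB by 0.39, SNRPF by 0.38 and SNRPD1 by 0.35. SNRPD2 at 0.30, SNRPD3 at 0.11 and SNRNP70 at 0.09 did not pass the test (adjusted p of 0.25, 0.0543 and 0.247 by edgeR), and SNRPA fell by 0.22 (adjusted p = 0.00519). The median of all genes on the log2(TPM + 1) scale, tested with limma, was -0.51. There SNRPB, SNRPE, SNRPG and SNRPC rose, against 7.96% of all genes, and SNRPD3, SNRPA and SNRNP70 fell, with values of -0.15, -0.48 and -0.17, against 60.6%. The share of reads on predicted transcripts moved with the treatment too, at 8.97 to 9.46% in wild-type OTS964 libraries against 11.4 to 12.5% in wild-type DMSO libraries, and its part in these values was not tested. In all 3 scalings each of the 10 values was above the median of all genes. DESeq2 and the counts scaled from TPM by length gave 10 genes higher, as did curated transcripts alone.

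**Figure D2:**
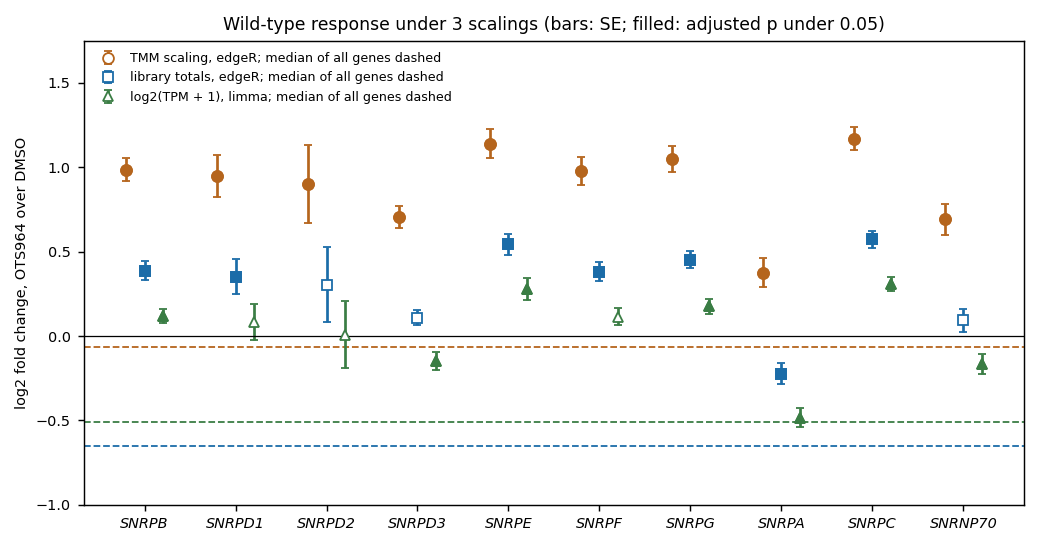
Log2 fold change of each gene in wild-type cells, OTS964 over DMSO across 4 lines (n = 8 libraries against 8), under TMM scaling, library totals and log2(TPM + 1); bars are SE, filled symbols passed an adjusted p of 0.05, and dashed lines are the medians of all genes. SNRPA lies at 0.38, -0.22 and -0.48 in that order.

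Within the wild-type lines 34 of the 40 gene and line pairs rose, where each line was tested with 2 libraries against 2 in a fit of all 16 groups by edgeR. In A375, 8 of the 10 genes rose, against 20.8% of all 14319 genes tested, in Cal51 all 10 against 24.9%, under the DLD1 wild-type label 8 against 22.2%, and in MDA-MB-231 8 against 24.1%. SNRPC rose by 0.96 in A375, 1.33 in Cal51, 1.11 under the DLD1 wild-type label and 1.08 in MDA-MB-231. SNRPA passed the test in Cal51, at 0.56 ± 0.15 (SE; adjusted p = 0.00332), and stood at 0.21, 0.31 and 0.23 in A375, the DLD1-labelled libraries and MDA-MB-231. SNRPD2 stood at 1.36 in Cal51, where it was called, and between 0.61 and 0.74 in the other 3. Its Cal51 call was lost without 1 of 3 wild-type Cal51 libraries (DMSO 1 at 1.13, DMSO 2 at 1.62 and OTS964 1 at 0.75) and with library totals (0.66, adjusted p = 0.285 by edgeR). With library totals 21 of the 40 pairs rose, against 10.7% of all gene and line pairs.

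Differences between the lines were tested as the response of 1 line minus the mean of the other 3. SNRPD1, in wild-type MDA-MB-231, responded less than elsewhere, by -0.65 ± 0.17 (SE; adjusted p = 0.00739), while 8.3% of genes did so there. It had 131 and 163 CPM under OTS964 and 112 and 109 CPM under DMSO in that line, while in Cal51 it had 287 and 293 CPM under OTS964 and 131 and 129 CPM under DMSO. Without the first OTS964 library of MDA-MB-231, of the pair that stood apart, the call was lost and the difference was -0.49. SNRNP70 in wild-type Cal51 responded more than in the other lines, by 0.54 ± 0.17 (SE; adjusted p = 0.0386), as 6.53% of genes did. It had 301 and 285 CPM under OTS964 and 144 and 139 CPM under DMSO. This call was lost in 14 of the 32 fits that left out 1 library, at values between 0.50 and 0.58, and with library totals (0.34, adjusted p = 0.255). The other genes did not pass this test in any wild-type line.

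In G579S cells SNRNP70 was the only member that rose with OTS964 across the lines, as 1.37% of the 13985 genes tested did, while 1.49% fell. The comparison asks what the drug does where CDK11 carries the resistance mutation. SNRNP70 ran from 128 over a median of 178 to 234.5 CPM under OTS964 and from 97 over 143 to 186 CPM under DMSO. Its log2 fold change was 0.38 ± 0.08 (SE; adjusted p = 0.0283). Both OTS964 libraries were above both DMSO libraries in each of the 4 lines, as for 1.39% of genes, although the ranges of the 8 libraries overlapped. The call was lost with library totals (0.27, adjusted p = 0.0743) and in 8 of the 16 fits that left out 1 library, at values of 0.34 to 0.40.

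The other 9 genes did not pass and stood between -0.18 for SNRPD2 and 0.20 for SNRPB. SNRPB ran from 279 over a median of 372 to 632 CPM under OTS964 and from 250.1 over 371 to 460.0 CPM under DMSO (0.20 ± 0.08, SE; adjusted p = 0.161). SNRPC ran from 106 over 156 to 240.2 CPM under OTS964 and from 97.8 over 128.5 to 184 CPM under DMSO (0.19 ± 0.12, SE; adjusted p = 0.38). Groups overlapped in both genes. At an unadjusted p under 0.05, 3 of the 10 genes were higher, SNRNP70 among them, and 0 lower, against 10.5% and 11.9% of all genes. These values depend on the second Cal51 G579S DMSO library, which was high for most members. SNRPC stood there at 171 CPM against 102 CPM in its replicate, SNRPB at 365 against 250.1 CPM and SNRPG at 114 against 68.2 CPM, while SNRNP70 was low at 97 against 144 CPM. Without that library 8 of the 10 genes were called higher, all except SNRPD2 and SNRPA, while 7.11% of all genes were higher in that fit, against 1.37% with the library. Their changes lay between 0.21 for SNRPG and 0.33 for SNRNP70 (adjusted p between 0.00697 and 0.0377 by edgeR).

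Within G579S lines, 6 of the 10 genes rose in DLD1 G579S, against 10.8% of all genes, and 0 in the other 3 lines. SNRPD1 had 166 and 149 CPM under OTS964 and 100.5 and 99.4 CPM under DMSO in DLD1 G579S (0.66 ± 0.15, SE; adjusted p = 0.00275 by edgeR). SNRPC had 189.2 and 189 CPM under OTS964 and 126 and 131 CPM under DMSO (0.56 ± 0.15, SE; adjusted p = 0.0109). SNRPB, SNRPD3, SNRPE and SNRNP70 rose by 0.45, 0.41, 0.51 and 0.50. With library totals 0 of these calls passed (adjusted p between 0.0569 and 0.278 by edgeR), and without 1 of the libraries (DLD1 G579S DMSO 1, DMSO 2, OTS964 1 or OTS964 2) the count was 2, 2, 1 and 4, where 5.45%, 5.81%, 5.77% and 6.77% of all genes were higher. In A375, Cal51 and MDA-MB-231 G579S cells, where 0 genes passed, the percentages of all genes called higher were 0.384%, 0.14% and 0.223%. At an unadjusted p under 0.05 by edgeR, SNRPD3 and SNRNP70 were higher in A375 G579S, against 4.39% of all genes. In MDA-MB-231 G579S SNRPD3, SNRPE, SNRPF and SNRPC were higher at that p, against 8.49%. In Cal51 G579S SNRNP70 was higher, against 5.8%, and SNRPE, SNRPF, SNRPG and SNRPC were lower, against 7.75%. The values of 8 genes were below 0 in Cal51 G579S, from -0.09 for SNRPB to -0.45 for SNRPE. Without the first DMSO library of that line 6 of them passed the test, where 7.93% of all genes were lower, and without the second 0 did, where 0.041% were.

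Set against the mean of the other 3 lines, in a test added after the data were seen, the G579S response was lower in Cal51 for 5 of the 10 genes, against 3.18% of all genes. The differences were -0.47 for SNRPD3, -0.85 for SNRPE, -0.57 for SNRPF, -0.66 for SNRPG and -0.71 for SNRPC (adjusted p between 0.0149 and 0.036 by edgeR). Without the second Cal51 G579S DMSO library 0 of these passed, at differences between -0.24 for SNRPG and -0.46 for SNRPE (adjusted p between 0.231 and 0.594 by edgeR). SNRPD1 responded more in DLD1 G579S than in the other G579S lines, by 0.61 ± 0.17 (SE; adjusted p = 0.0232), as 4.67% of genes did. That call was lost without 1 of 3 DLD1 G579S libraries (DMSO 1 at 0.61, DMSO 2 at 0.60 and OTS964 1 at 0.52) and with library totals (0.43, adjusted p = 0.121).

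**Figure D3:**
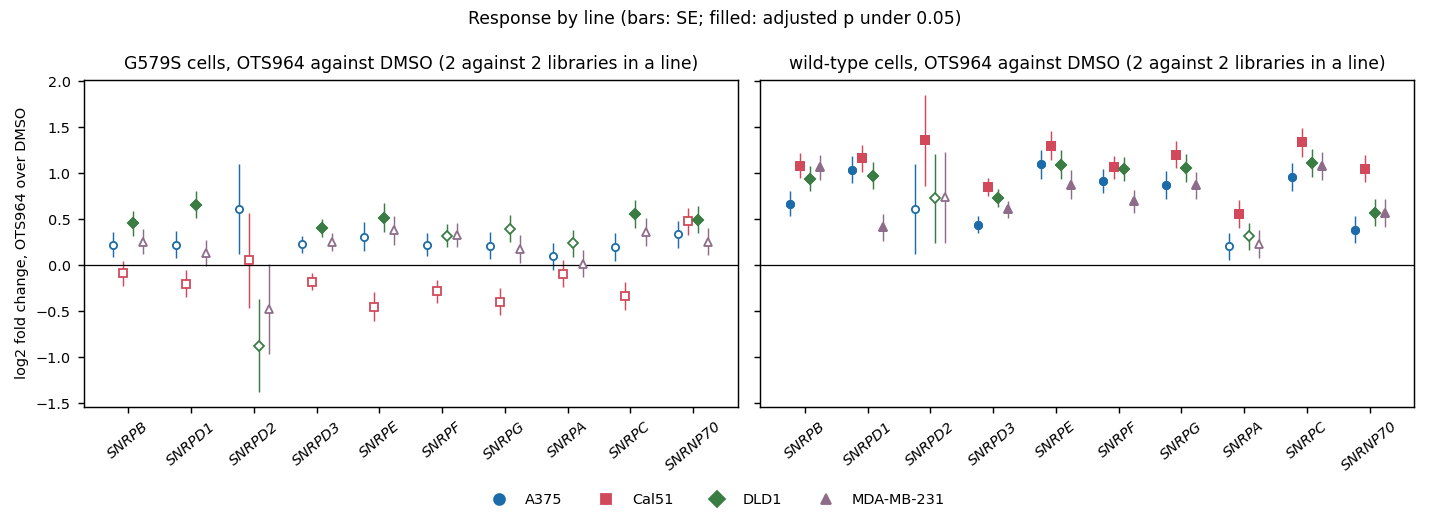
Log2 fold change of each gene, OTS964 over DMSO, by line in G579S cells (left) and wild-type cells (right), with 2 libraries against 2 in a line; bars are SE and filled symbols passed an adjusted p of 0.05. Wild-type values run from 0.21 to 1.36, and among G579S values those of Cal51 lie below 0 for 8 genes.

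The difference of the responses was tested itself over all 32 libraries, as the response in G579S minus that in wild-type cells. It passed the test below 0 for 9 of the 10 genes, against 24.3% of the 14319 genes tested lower and 25.8% higher. SNRPC, at a response of 0.19 in G579S and 1.17 in wild-type cells, had a difference of -0.93 ± 0.14 (SE; adjusted p = 4.44e-06). SNRPE and SNRPG both had a difference of -0.90 (adjusted p of 1.89e-05 and 3.58e-06 by edgeR), SNRPF of -0.78, SNRPB of -0.73 and SNRPD1 of -0.70. SNRPD3 stood at -0.48, and SNRPD2 at -1.02 ± 0.36 (SE; adjusted p = 0.0203). SNRPA, at -0.26 ± 0.11 (SE; adjusted p = 0.0493), lost its call in 23 of the 32 fits that left out 1 library, with no filter on low counts (-0.25, adjusted p = 0.076) and with counts scaled from TPM by length (-0.25, adjusted p = 0.0572). SNRNP70 stood at -0.25 ± 0.12 (SE; adjusted p = 0.0901), and its adjusted p was 0.025 without the second Cal51 G579S DMSO library.

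The scaling entered here as well, since library totals moved the median difference of all genes from 0.00 to 0.42. With totals 5 genes were lower, against 12.6% of all genes: SNRPB, SNRPE, SNRPF, SNRPG and SNRPC. SNRPA and SNRNP70 then stood at 0.17 and 0.18. On the log2(TPM + 1) scale SNRPG and SNRPC were lower, against 6.59% of all genes, and SNRPD3, SNRPA and SNRNP70 higher at 0.20, 0.42 and 0.43, against 44.1%, while the median of all genes was 0.34. Without the DLD1 libraries 8 genes were lower, against 22.6% of all genes. SNRPD2 lost its call there, at -0.83 (adjusted p = 0.101 by edgeR).

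**Figure D4:**
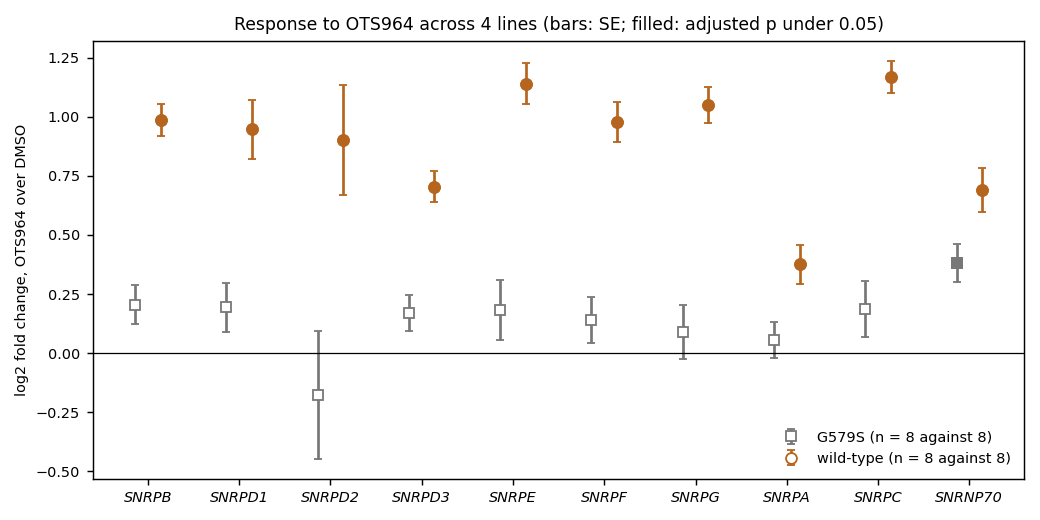
Log2 fold change of each gene across 4 lines, OTS964 over DMSO, in G579S cells (squares) and wild-type cells (circles), with n = 8 libraries against 8 in each; bars are SE and filled symbols passed an adjusted p of 0.05. All wild-type values lie above the G579S value of the same gene, by the widest margin for SNRPD2 and the narrowest for SNRPA and SNRNP70.

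Without drug, 1 of the 10 genes differed between the genotypes across the lines. In DMSO libraries SNRPB was lower in G579S than in wild-type cells, at 250.1 to 460.0 CPM in G579S and 370 to 578 CPM in wild-type cells, medians of 371 and 440 CPM. The log2 difference was -0.35 ± 0.07 (SE; adjusted p = 0.018), as 1.43% of 14062 genes were lower. Without the DLD1 libraries it was -0.37 (adjusted p = 0.0521 by edgeR) and was no longer called, and likewise without the first DLD1 G579S DMSO library (-0.35, adjusted p = 0.0563). The other 9 genes did not pass the test, with values between -0.46 for SNRPD2 and 0.17 for SNRPC. Within lines, SNRPD1 was lower in A375 G579S, at 96.8 and 98.6 CPM against 143 and 140 CPM in wild-type A375 (-0.54 ± 0.15, SE; adjusted p = 0.0225), where 5.38% of genes were lower. In MDA-MB-231 SNRPB was lower, at 292 and 280 CPM in G579S against 399.9 and 401 CPM in wild-type cells (-0.48 ± 0.14, SE; adjusted p = 0.0334), with 4.56% of genes lower. In DLD1, 4 genes were lower, SNRPE by 1.22, SNRPG by 0.58, SNRPA by 0.46 and SNRPF by 0.38, with 26.4% of genes lower in that pair. The genotype there cannot be told apart from the mismatch of the wild-type label with its markers. In Cal51 0 genes passed, where 6.73% of all genes were lower, and at an unadjusted p under 0.05 by edgeR 1 was lower and 0 higher, against 11.8% and 17% of all genes. Without the second Cal51 G579S DMSO library the calls over the 4 lines were 3 higher and 14 lower of 40, against 9.41% and 10.8% of all gene and line pairs. Without the first they were 6 higher and 10 lower, against 11.3% and 12.3%, and with both libraries 0 and 6, against 10% and 10.8%.

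Ratios between genes within a library do not depend on its scaling. Those of the 3 U1 particle genes were computed after the changes above had been seen. In wild-type cells the log2 ratio of SNRPA to SNRPC ran from -1.89 over a median of -0.59 to -0.04 under OTS964 and from -1.01 over 0.18 to 0.72 under DMSO. Both OTS964 libraries were below both DMSO libraries in 4 of 4 lines, by a mean of -0.80, with changes from -0.76 in A375 to -0.85 in MDA-MB-231. An exact permutation test within lines, two-sided over 1296 arrangements, gave p = 0.00154, the smallest it can give, and 0.00309 adjusted over 6 ratio tests. The ratio of SNRNP70 to SNRPC moved by -0.48 and that of SNRPA to SNRNP70 by -0.32, each below DMSO in 4 of 4 lines and with the same exact p. In G579S cells the ratio of SNRPA to SNRPC moved by -0.14 (exact permutation p = 0.103, adjusted 0.124) and that of SNRNP70 to SNRPC by 0.19 (exact permutation p = 0.387, adjusted 0.387). Without the second Cal51 G579S DMSO library these were -0.16 (exact permutation p = 0.0293) and 0.028 (exact permutation p = 0.645). That of SNRPA to SNRNP70 moved by -0.33 (exact permutation p = 0.00309, adjusted 0.00463), with both OTS964 libraries below both DMSO libraries in 3 of 4 lines, and by -0.19 without the second Cal51 DMSO library (exact permutation p = 0.00772). That call was lost in 2 of the 16 fits that left out 1 library. The difference of the ratio changes between the genotypes was not tested.

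**Figure D5:**
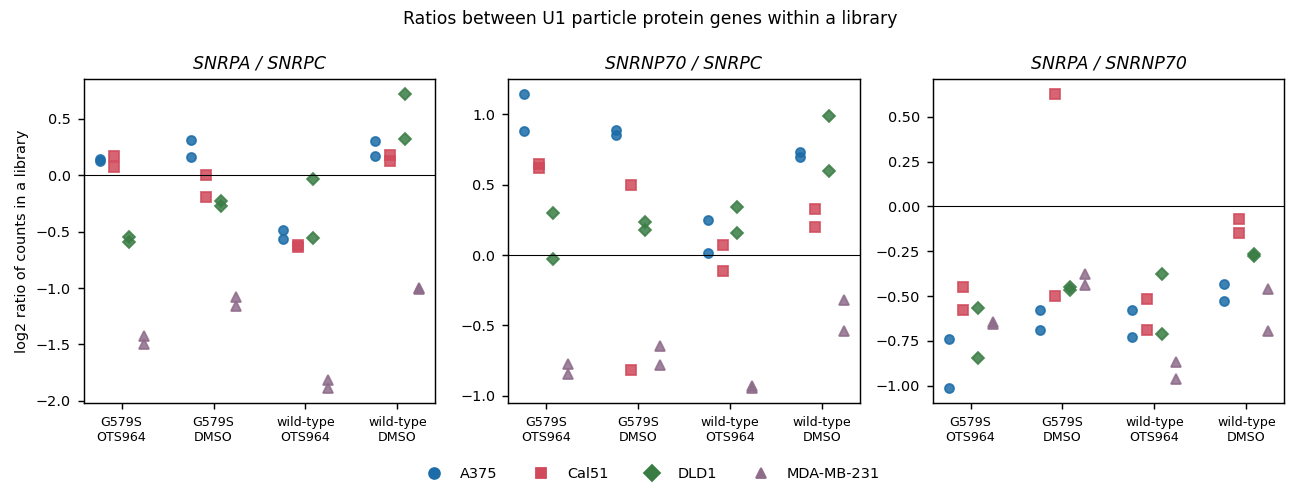
Log2 ratio of counts within a library for pairs of U1 particle genes, by genotype and treatment; each point is a library, and colour and shape give the line. In wild-type cells the SNRPA to SNRPC ratio is lower under OTS964 in every line, and MDA-MB-231 lies lowest in both ratios to SNRPC.

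The 10 genes did not vary as a block over the 32 libraries. Correlations of log2 CPM are given as a description, since libraries share lines, treatments and scaling. SNRPF followed the mean of the other 9 most closely (Pearson 0.95), and the closest pairs were SNRPF with SNRPG (0.96) and SNRPE with SNRPG (0.95). SNRPC followed the others least (0.37), and its pairing with SNRPA stood at 0.04. By the mean of the 2 libraries SNRPC was highest in MDA-MB-231 among the wild-type lines, at 331 CPM under OTS964 and 157 CPM under DMSO, although under OTS964 its libraries at 359 and 302 CPM overlapped with those of Cal51 at 287 and 308 CPM. In MDA-MB-231 SNRPE, SNRPF, SNRPG and SNRPA had their lowest wild-type levels. The genes outside the group whose profile was most like the mean of the 10 were HNRNPM (0.97), which encodes a nuclear RNA-binding protein, PCBP1 (0.97), a poly(C)-binding protein, YBX1 (0.97), a cold shock protein that packs mRNA, ATP5PF (0.965), a subunit of ATP synthase, and TOMM5 (0.96), a subunit of the mitochondrial import pore.

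Transcripts could be compared for 3 members with 2 matched transcripts each. NM_003091.3 held between 60.6 and 74.7% of the SNRPB counts, with a median of 66.25% in wild-type cells under OTS964 and 64.3% under DMSO, and NM_198216.1 held the rest. NM_004175.4 held 95.7 to 98.85% of the SNRPD3 counts. For SNRPD2 the share of NM_004597.5 ran from 22.8 to 90.7% at its low counts, and NM_177542.2 held the rest. A difference in usage between the treatments did not pass edgeR's diffSpliceDGE in these genes (adjusted p = 1 in each), while 17% of the 6403 genes tested passed.

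Other genes of the pathway moved in both directions in wild-type cells, and their counts stand beside the 29.9% of all genes that were higher and the 32% that were lower, or 14.1% and 49.7% with library totals. The SMN complex, which loads the Sm ring, had 6 genes lower and 1 higher of 10. GEMIN7, GEMIN2 and GEMIN6 fell by 2.19, 1.67 and 1.26, and STRAP, which binds the complex, rose by 0.43. With library totals STRAP stood at -0.17 and 9 of the 10 were lower. SMN1 and SMN2 are near-identical copies, so reads between them are uncertain. Of 10 methylosome, cap and transport factors 5 rose and 2 fell. COPRS and CLNS1A, partners of the Sm methyltransferase, rose by 0.72 and 0.66, and the cap-binding NCBP1 by 0.66. TGS1, which trimethylates the cap, fell by 2.24, and SNUPN, the import adaptor of the cap, by 0.49. With library totals 0 of these factors rose and 5 fell. Of 9 U1-associated splicing factors 5 fell and 0 rose, with LUC7L3 at -2.46, RBM25 at -1.20 and TIAL1 at -0.93, and with library totals 8 fell.

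Of 3 further particle protein genes with symbols like those of members 2 were matched. SNRPB2 and SNRPA1, of the U2 particle, rose by 0.82 and 0.26, and with library totals SNRPB2 stood at 0.22 and SNRPA1 fell by 0.34. Of the 10 LSm genes, relatives of the Sm family that ring the U6 RNA or act in mRNA decay, 7 rose and 3 fell. LSM3, LSM7 and LSM4 rose by 1.18, 1.04 and 1.01, while LSM8, LSM11 and LSM10 fell by 1.32, 0.81 and 0.58. LSM10 and LSM11 take the place of SmD proteins in the U7 particle of histone mRNA processing. With library totals 3 LSm genes rose and 3 fell. Of 16 genes of the U5 particle and the tri-snRNP 10 rose and 4 fell, with SNU13 at 1.05, PPIH at 1.03 and PRPF8 at 0.94, and SNRNP40, PRPF4 and PRPF3 at -0.83, -0.82 and -0.70. Under library totals the counts were 6 and 8. Of 8 genes of the minor spliceosome 2 rose and 4 fell, with SNRNP25 at 1.145 and ZCRB1 at 0.71, and ZRSR2, PDCD7 and SNRNP35 at -1.63, -1.20 and -1.18, and with totals 1 rose and 5 fell. Of 5 genes of SNAPc, which binds the promoters of small nuclear RNA genes, SNAPC1 fell by 1.62, and with totals 3 fell. The medians were -0.73 for the SMN complex, 0.38 for the methylosome, cap and transport factors, -0.67 for the U1-associated factors, 0.64 for LSm, 0.50 for U5 and tri-snRNP, -0.50 for the minor spliceosome and 0.08 for SNAPc, against -0.06 over all genes.

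In G579S cells, where 1.37% of all genes were higher and 1.49% lower, the genes named here were chosen after their values were seen. RBM25 and DDX20, a helicase of the SMN complex, rose by 0.50 and 0.57, LUC7L3 and GEMIN6 fell by 0.77 and 0.35, and SNAPC3 rose by 0.69. Of the 16 U5 and tri-snRNP genes 5 rose, among them PRPF3 by 0.81 and DDX23 by 0.37. Without the second Cal51 G579S DMSO library 13 rose, while 7.11% of all genes did. With library totals 0 genes of the SMN complex and 0 U1-associated factors rose, so the calls of DDX20 and RBM25 were lost. In each of these 2 lists 2 genes fell, against 5.23% of all genes. In that fit 4 U5 and tri-snRNP genes and 1 SNAPc gene rose, against 0.708% of all genes.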

How the data were processed

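RNA from 32 libraries was quantified per transcript by the authors. The deposited tables give estimated counts and TPM for 87398 identifiers. No source used here names the quantification tool, and the submitters' processing notes name the builds GRCm38 and mm10, although the samples are human. Identifiers were matched to genes by a RefSeq table of GRCh38.p14 and GENCODE names: 42587 (48.7%) matched, to 18858 genes, and held on average 87.6% of the estimated reads. The other 12.4% of reads were left out. Depth per library ran from 16091376 to 29742687 estimated reads, and a count of 3 is the floor that a count of 0 allows, for counting error only.

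Counts were summed per gene, rounded, filtered with filterByExpr, scaled by TMM and tested with edgeR 4.0.16 (R 4.3.3) by the quasi-likelihood test, Benjamini-Hochberg adjusted over all genes at 0.05. Responses across lines were fitted with the line as a block in 16 libraries, the difference of responses over all 32, and single lines in a fit of 16 groups. In that fit, the trended dispersion of all libraries was kept when 1 library was left out. Replicate numbers came from the labels. They did not pair the samples, since 0 of 12 correlations of deviations exceeded 0.1. Alternatives were library totals, no filter, length-scaled TPM, curated transcripts, a replicate block, no DLD1 libraries, log2(TPM + 1) with limma 3.58.1, DESeq2 1.42.0 and leaving out each library. The tests were checked on simulated counts in which only a small share of genes was changed. Those counts held no shift of most genes, so the check does not bear on the choice of scaling.

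The 10 genes and the pathway lists were chosen with earlier results of these data known. All 10 genes are named. In each list the 3 genes with the largest called changes in each direction are named, and the 5 genes most like the mean of the 10 by Pearson correlation. Sequences are from RefSeq. Directions are relative to the scaling, since RNA per cell was not measured.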

Additional observations from a re-analysis of the deposited data

Results flagged for a closer look

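The responses to OTS964 differed between the genotypes, by the test of the difference itself over 32 libraries (G579S response minus wild-type response, log2), for 9 genes: -0.73 for SNRPB, -0.70 for SNRPD1, -1.02 for SNRPD2, -0.48 for SNRPD3, -0.90 for SNRPE, -0.78 for SNRPF, -0.90 for SNRPG, -0.26 for SNRPA and -0.93 for SNRPC. The SNRPA call was lost in 23 of the 32 fits that left out 1 library. It was also lost with no filter on low counts and with counts scaled from TPM by length. With library totals the calls of SNRPD1, SNRPD2, SNRPD3 and SNRPA were lost. On the log2(TPM + 1) scale only SNRPG and SNRPC stayed lower, and SNRPD3 and SNRPA were higher, at 0.20 and 0.42. Without the DLD1 libraries SNRPD2 stood at -0.83 and lost its call (adjusted p = 0.101 by edgeR).

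Between lines, the wild-type response of SNRNP70 in Cal51 differed from the mean of the other 3 lines by 0.54, and that of SNRPD1 in MDA-MB-231 by -0.65. In G579S cells the response in Cal51 differed by -0.47 for SNRPD3, -0.85 for SNRPE, -0.57 for SNRPF, -0.66 for SNRPG and -0.71 for SNRPC, and that of SNRPD1 in DLD1 by 0.61. Of the Cal51 G579S calls, those of SNRPD3, SNRPF and SNRPG were lost with library totals, and all were lost with the replicate block. Without the second Cal51 G579S DMSO library these differences lay between -0.24 for SNRPG and -0.46 for SNRPE. The calls of SNRNP70 in wild-type Cal51 and SNRPD1 in DLD1 G579S were lost with library totals.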

How the results depend on the processing

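Depth limits SNRPD2 most, with 28 counts in its lowest library. In wild-type cells the count of 10 genes higher held in all alternatives except library totals (6 higher and 1 lower) and log2(TPM + 1) (4 higher and 3 lower), and when each of the 16 libraries was left out it was 10 each time. On log2(TPM + 1) SNRPD3 stood at -0.15, SNRPA at -0.48 and SNRNP70 at -0.17, and with library totals SNRPA at -0.22. Within lines 21 calls were higher with library totals, where A375 SNRNP70 stood at -0.055, Cal51 SNRPA at -0.15 and MDA-MB-231 SNRPD1 at -0.089, and 33 to 35 with a library left out.

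In G579S cells 0 of the 10 genes were called with library totals, the replicate block and log2(TPM + 1). Of all genes 0.708%, 0% and 0.844% were higher in these fits and 5.23%, 0% and 6.81% lower. The replicate block thus called no gene at all, and its 0 says nothing particular to these 10. With a library left out 0 to 8 were called. SNRPG stood at -0.018 with totals and -0.029 on log2(TPM + 1), SNRPA at -0.053 and -0.059. Within G579S lines 0 genes were higher with totals, and with a library left out 1 to 9 were higher and 0 to 6 lower. The difference between genotypes gave 5 genes lower with totals and 2 lower and 3 higher on log2(TPM + 1), and 8 to 10 lower with a library left out. SNRPA and SNRNP70 stood at 0.17 and 0.18 with totals, and SNRPD3, SNRPA and SNRNP70 at 0.20, 0.42 and 0.43 on log2(TPM + 1).

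Under DMSO 0 of the genes described here were lower with the replicate block and without DLD1, and 0 to 1 with a library left out. Of all genes 0% were lower with the replicate block and 0.973% without the DLD1 libraries. The replicate block thus called no gene at all here, and its 0 says nothing particular to the genes described. The ranges below, with a library left out, stand without shares of all genes. Without DLD1 SNRPD3 stood at -0.018, SNRPE at 0.069 and SNRPG at 0.13, and SNRPG ran from -0.12 to 0.015 with a library left out. Within lines, 2 were higher with totals, and with a library left out 0 to 6 were higher and 4 to 14 lower. For the line differences in wild-type cells, 0 were higher with totals and with the replicate block, and with a library left out 0 to 2 were higher and 0 to 3 lower. In G579S cells 0 were higher and 2 lower with totals, 0 lower with the replicate block, and with a library left out 0 to 7 were higher and 0 to 7 lower. With the replicate block SNRPB stood at -0.36 under DMSO (adjusted p = 0.214 by edgeR), SNRNP70 at 0.39 in the G579S response (adjusted p = 0.129), SNRPA at -0.25 in the difference of responses (adjusted p = 0.0557) and SNRPD2 at 1.29 in wild-type Cal51 (adjusted p = 0.0727), and none of these was called. Except where the construction of an alternative shows it, the cause was not tested.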
